A study of Sus scrofa with 6 samples.

Results

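E2 enzymes are the middle step of ubiquitin transfer. An E1 enzyme activates ubiquitin, an E2 takes it onto a cysteine in its catalytic domain, and an E3 ligase brings the loaded E2 to the protein that is to be tagged. Some E2s hand on ubiquitin-like proteins such as SUMO or NEDD8 instead, and the E2 often sets which kind of ubiquitin chain is built. In oocytes this system is best known for the anaphase-promoting complex (APC/C), an E3 that marks securin and cyclin B for destruction so that the chromosomes can separate in meiosis.

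The genes described here are the named E2 genes of the pig, taken as all genes in the deposited expression table whose symbol begins with UBE2 and a further letter. They number 33 of 29861 genes, and all counts below are over 32 of them. Of the 32, 17 had a mean of at least 1 FPKM over the 6 samples (FPKM, fragments corrected for transcript length and library size, so that levels of different genes can be set side by side), as did 4713 of all genes, and the 17 are described one by one. The samples were porcine oocytes in 3 groups of 2: control, heat stress, and heat stress with nicotinamide mononucleotide (NMN), a precursor of the coenzyme NAD+. The labels give 24 hours and the GV (germinal vesicle) stage for all 6 samples, whereas the methods describe oocytes taken at metaphase II after maturation in culture, so the stage is not settled by these sources. Breed, age and genotype of the animals and the NMN dose of the sequenced samples are not stated in the labels. Neither the labels nor the methods say whether the samples of a group were separate collections, so the P-values measure the spread between these samples, which may be technical.

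Markers were read across the libraries before the E2 genes. Of 12 oocyte markers, 10 had a mean of at least 1 FPKM, and their summed level was 2789 to 3545 FPKM per sample. None of the 11 cumulus and granulosa markers in the table reached a mean of 1 FPKM (0.360 to 1.16 FPKM summed per sample), and neither did any of the 4 blood cell markers (0 to 0.439 FPKM summed). Mitochondrially encoded genes took 61.7% to 74.7% of all FPKM in a sample, and the depth of the libraries is unknown, since no counts were used. Of the 10 oocyte markers tested, 4 were lower with heat stress than in control samples (10.1% of all tested genes were), 1 was lower with NMN than with heat stress (6.45%) and 6 were lower with NMN than in control samples (15.7%), beside the E2 differences given below. None of the 10 was higher in any comparison. Their part in these differences was not tested. In pools of oocytes, fewer transcripts per cell and a different make-up of the rest of the RNA cannot be told apart.

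The E2 catalytic domain can be seen in the coding sequences. A histidine-proline-asparagine (HPN) tripeptide, followed a few residues later by the cysteine that carries ubiquitin, was found in 12 of the 17 genes and was not found by this search in UBE2J2, UBE2Q2, UBE2V1, UBE2V2 and UBE2W. Of these, the members that differed between groups or led in level are shown as 48 bases of the RefSeq coding sequence (Sscrofa11.1, 5′ to 3′). Capitals mark the HPN codons and the cysteine codon. UBE2N is not shown, because its RefSeq model leaves out genome bases inside the coding sequence.
UBE2C: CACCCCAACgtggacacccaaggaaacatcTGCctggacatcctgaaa
UBE2S: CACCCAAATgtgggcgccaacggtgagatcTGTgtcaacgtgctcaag
UBE2D1: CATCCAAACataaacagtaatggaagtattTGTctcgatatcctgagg
UBE2D2: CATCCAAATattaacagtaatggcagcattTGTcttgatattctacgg
UBE2G1: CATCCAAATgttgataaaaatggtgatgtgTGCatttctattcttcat
UBE2H: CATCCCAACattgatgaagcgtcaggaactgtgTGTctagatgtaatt
In Sscrofa11.1 these genes lie at chr17:48018403-48021542 (UBE2C, plus strand), chr6:59565001-59570484 (UBE2S, minus strand), chr14:92296314-92330432 (UBE2D1, minus strand), chr2:141397937-141459821 (UBE2D2, plus strand), chr12:50258037-50368621 (UBE2G1, minus strand) and chr18:18819612-18932909 (UBE2H, plus strand), and each window is exonic coding sequence of the gene. The cysteine stood 8 residues after the asparagine in each of these except UBE2H, in which it stood 9 residues after. UBE2V1 and UBE2V2 belong to the E2 variants, which fold like an E2 but lack the catalytic cysteine and work as partners of UBE2N.

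The 2 highest members were both E2s of the APC/C. UBE2C, which places the first ubiquitins on APC/C substrates, had a mean of 32.6 FPKM. UBE2S, which lengthens those chains, had a mean of 25.4 FPKM. Next came UBE2V1 (18.6 FPKM), UBE2T (15.4 FPKM), UBE2N (14.3 FPKM), UBE2V2 (14.3 FPKM) and UBE2H (10.3 FPKM). From UBE2Q2 at 6.86 FPKM the means fell to 1.04 FPKM for UBE2M. The ranges over the samples of neighbours in this order overlapped, except between UBE2D2 and UBE2W. Within each sample, though, UBE2C was above UBE2S, UBE2V1 above UBE2T and UBE2H above UBE2Q2. The same held for UBE2G1 above UBE2D2 and UBE2D2 above UBE2W. The other neighbouring pairs changed order between samples, so their order is not settled. The 32 genes together summed to 159 to 186 FPKM per sample. This was 0.243% to 0.302% of the FPKM of all nuclear genes with 1 gene (LOC100513953) left out. LOC100513953 took a large share of the FPKM in heat stress replicate 1 and hardly any in the other samples. All genes together summed to 290136 FPKM in heat stress replicate 1, against 163929 to 239211 FPKM in the other samples. The 5 highest genes held 59.5% to 67.3% of the E2 sum.

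**Figure D1:**
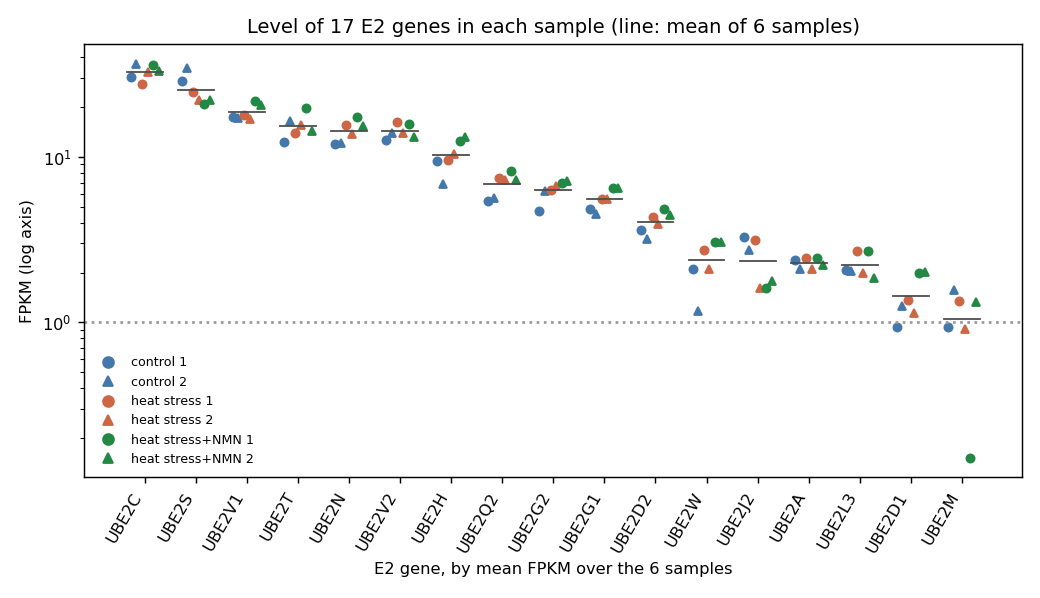
FPKM of the 17 E2 genes in each of the 6 samples, on a log axis, in order of their mean over the samples (horizontal lines); colours mark the groups, shapes the replicates, and the dotted line 1 FPKM. UBE2C and UBE2S stand at the left with means of 32.6 and 25.4 FPKM, and UBE2M is the only gene with a sample far below the rest (0.153 FPKM in NMN-supplemented replicate 1).

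The other 15 genes had means under 1 FPKM. UBE2J1, UBE2QL1 and UBE2L6 were listed at 0 in all 6 samples, 3 more (UBE2F, UBE2E2 and UBE2D4) had means above 0 and under 0.1 FPKM, and 9 had means of 0.1 FPKM or more. UBE2Q1, just outside the limit at a mean of 0.977 FPKM, was the only one to reach 1 FPKM in any sample, with 1.5 and 1.17 FPKM in control, 0.534 and 1.40 FPKM in heat-stressed and 0.655 and 0.60 FPKM in NMN-supplemented samples. UBE2M, just inside it, had a mean of 1.04 FPKM. The genes at low levels included UBE2B, the close relative of UBE2A, and UBE2D3 (means of 0.417 and 0.30 FPKM). Each of them has a close match elsewhere in the genome at a higher level, as described below.

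Each comparison was made with limma on log2(FPKM + 1) over the 4713 genes, and a gene was called at an unadjusted P under 0.05. Differences below are on this scale, which understates the change of genes near 1 FPKM. The 3 comparisons share samples, so their values are given side by side. No group had NMN without heat stress, so a difference from control with NMN holds heat stress and NMN together. For 1 gene in 2 samples against 2, the smallest P that an exact permutation test allows is 0.333. P-values printed below are from limma, adjusted by Benjamini-Hochberg over the 4713 genes, so that a called gene can carry an adjusted P above 0.05.

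In heat-stressed oocytes compared with control oocytes, UBE2S was lower and UBE2Q2 was higher, and no other E2 gene described here was called. This made 2 of 17 genes (11.8%), against 22.8% of all tested genes. By direction, 1 of 17 was higher (all genes 12.7%) and 1 of 17 was lower (all genes 10.1%). No E2 gene and none of all tested genes (0%) had a Benjamini-Hochberg adjusted P under 0.05 in limma, and the smallest adjusted P among the E2 genes was 0.179. The median difference of the 17 genes was 0.11, against 0.049 for all genes. The samples of the 2 groups did not overlap for 8 of the 17 genes, against 54.7% of all genes. Without heat stress replicate 2, 0 of the 17 genes were called.

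In NMN-supplemented oocytes compared with heat-stressed oocytes, UBE2D1 and UBE2V1 were higher and no E2 gene was lower. This made 2 of 17 genes (11.8%), against 13.6% of all tested genes, with 7.15% of all genes higher and 6.45% lower. At an adjusted P under 0.05 in limma the count was 0 for the E2 genes and for all genes (0%), and the smallest adjusted P among the E2 genes was 0.342. The median difference was 0.14, against 0.078 for all genes. For 8 of the 17 genes the samples did not overlap, and all 8 were higher with NMN. Of all genes 53.5% had no overlap in either direction, and 35.9% had none and were higher. The count of calls was 0 without NMN replicate 1 and 1 (UBE2D1) without heat stress replicate 1. Without heat stress replicate 2 or NMN replicate 2 neither call stood, and a single gene was called lower in their place, UBE2J2 and UBE2M respectively.

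In NMN-supplemented compared with control oocytes, 9 of 17 genes (52.9%) were called, against 41.3% of all tested genes. Higher were UBE2W, UBE2H, UBE2D1, UBE2Q2, UBE2N, UBE2G1, UBE2D2 and UBE2V1, 8 of 17 against 25.6% of all genes. UBE2S was lower, 1 of 17 against 15.7% of all genes. UBE2S, UBE2D1 and UBE2G1 also had an adjusted P under 0.05 in limma (3 of 17 genes, or 17.6%, against 21.5% of all genes). The median difference was 0.28, against 0.11 for all genes, and 11 of the 17 genes had no overlap between the samples, against 69.9% of all genes. With the samples scaled to the same nuclear FPKM sum the split was 7 higher and 2 lower here, and 0 higher and 1 lower for heat stress against control. Without NMN replicate 1, 2 genes were called against control, and without NMN replicate 2, 5. None of the 3 adjusted calls stood when any 1 sample was left out, and UBE2H passed this threshold without control replicate 1.

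**Figure D2:**
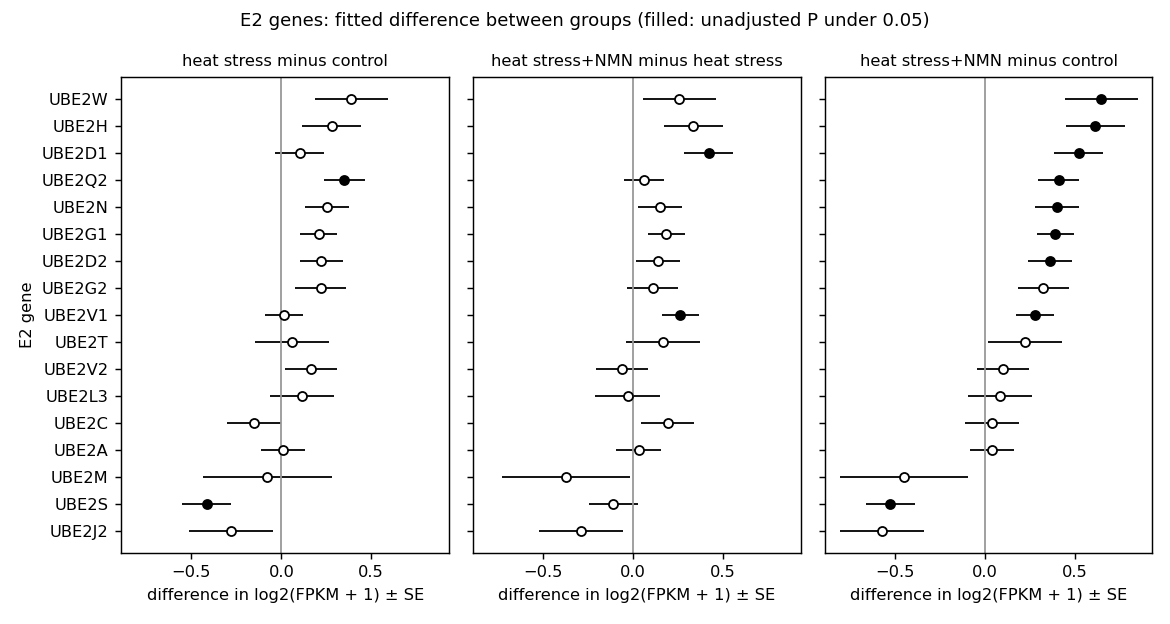
Fitted difference in log2(FPKM + 1) ± SE for the 17 E2 genes in the 3 comparisons, ordered by the difference between heat stress+NMN and control; filled points have an unadjusted P under 0.05. Filled points number 2, 2 and 9 from left to right, and UBE2S is the only filled point below 0 in the right panel.

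The group means stood in the order control, heat stress, heat stress with NMN from low to high in 11 of the 17 genes (64.7%), against 37.6% of all tested genes. The order was the reverse in 3 genes, UBE2S, UBE2J2 and UBE2M (17.6%, against 21.4% of all genes). For UBE2H, UBE2G2, UBE2G1, UBE2D2 and UBE2W, no sample of any group overlapped with a sample of another group. The highest control and lowest heat-stressed samples lay close in UBE2W (2.106 and 2.109 FPKM), UBE2G2 (6.21 and 6.28 FPKM) and UBE2H (9.46 and 9.64 FPKM). They lay farther apart in UBE2D2 (3.62 and 3.91 FPKM) and UBE2G1 (4.84 and 5.55 FPKM). In the single comparisons 54.7%, 53.5% and 69.9% of all genes had no overlap. How many of all genes stood apart in all 3 groups was not counted, so this separation is not shown to be particular to E2 genes. The order of the 3 means is a description and was not tested as such.

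Of the APC/C pair, UBE2S was lower in both heat-exposed groups than in control oocytes, and UBE2C was called in no comparison. UBE2S was at 28.6 and 34.3 FPKM in control, 24.6 and 21.9 FPKM in heat-stressed and 20.8 and 22.1 FPKM in NMN-supplemented samples. All 4 heat-exposed samples were below both control samples. The difference from control was -0.42 ± 0.14 (SE) with heat stress (adjusted P = 0.181) and -0.53 ± 0.14 with heat stress and NMN (adjusted P = 0.0479), while between the heat-exposed groups it was -0.11 (adjusted P = 0.689). UBE2C was at 30.4 and 36.6 FPKM in control, 27.4 and 32.6 FPKM in heat-stressed and 35.9 and 32.8 FPKM in NMN-supplemented samples. Its control samples overlapped with those of both other groups, and its differences were -0.15 ± 0.15, 0.19 ± 0.15 and 0.040 ± 0.15 in the order of the comparisons above (adjusted P of 0.561, 0.524 and 0.858). The ratio of UBE2C to UBE2S, chosen after the values were seen and given without a test, was 1.07 in each control sample, 1.12 and 1.49 with heat stress and 1.73 and 1.48 with NMN. UBE2S was no longer called with heat stress without control replicate 2 (-0.29) or heat stress replicate 2 (-0.34), and no longer called with NMN against control without NMN replicate 1 (-0.48).

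UBE2M, the E2 of NEDD8, was at 0.944 and 1.57 FPKM in control, 1.35 and 0.912 FPKM in heat-stressed and 0.153 and 1.33 FPKM in NMN-supplemented samples. On the log2(FPKM + 1) scale its NMN-supplemented samples lay farther apart than those of any other member at a mean of 1 FPKM or more, and no difference was called with all samples in the fit. Without NMN replicate 2, UBE2M was lower than in heat-stressed (-0.88) and control oocytes (-0.96), from the single sample at 0.153 FPKM.

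UBE2D1, UBE2D2 and UBE2W were all higher in NMN-supplemented than in control oocytes. The UBE2D enzymes work with a broad range of E3 ligases, and UBE2W attaches ubiquitin to the amino terminus of proteins. UBE2D1 was at 0.936 and 1.26 FPKM in control, 1.36 and 1.13 FPKM in heat-stressed and 1.99 and 2.01 FPKM in NMN-supplemented samples. The NMN-supplemented samples were above all 4 others, which overlapped with each other. The difference was 0.42 ± 0.14 from heat stress (adjusted P = 0.342) and 0.52 ± 0.14 from control (adjusted P = 0.0481), and between heat stress and control it was 0.10 ± 0.14 (adjusted P = 0.665). Its call against control stood in all 15 alternatives run, and its call against heat stress was lost without heat stress replicate 2 (0.35) or without either NMN replicate (0.42 each).

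UBE2D2 was at 3.62 and 3.18 FPKM in control, 4.36 and 3.91 FPKM in heat-stressed and 4.83 and 4.47 FPKM in NMN-supplemented samples. The groups stood apart in this order, and the difference from control was 0.36 ± 0.12 with NMN (adjusted P = 0.0826) and 0.22 ± 0.12 with heat stress alone (adjusted P = 0.322). Between NMN and heat stress it was 0.14 ± 0.12 (adjusted P = 0.564). UBE2W was at 2.11 and 1.18 FPKM in control, 2.73 and 2.11 FPKM in heat-stressed and 3.08 and 3.06 FPKM in NMN-supplemented samples. The lowest heat-stressed sample was barely above the highest control sample, and the differences from control were 0.65 ± 0.20 with NMN (adjusted P = 0.0710) and 0.39 ± 0.20 with heat stress alone (adjusted P = 0.303). Between NMN and heat stress the difference of UBE2W was 0.26 ± 0.20 (adjusted P = 0.529). Against control with NMN, UBE2D2 and UBE2W lost their calls without control replicate 2 (0.29 and 0.39), NMN replicate 1 (0.32 and 0.64) or NMN replicate 2 (0.41 and 0.65), and UBE2W gained a call with heat stress without control replicate 1 (0.65). UBE2D3, UBE2D4, UBE2E2 and UBE2E3 of the same families were below 1 FPKM and were not tested.

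UBE2N builds ubiquitin chains linked through lysine 63, which serve in signalling and DNA repair rather than in degradation, and does so as a dimer with UBE2V1 or UBE2V2. UBE2N was at 11.9 and 12.2 FPKM in control, 15.5 and 13.7 FPKM in heat-stressed and 17.3 and 15.3 FPKM in NMN-supplemented samples. Both control samples were below the other 4, and the difference from control was 0.25 ± 0.12 with heat stress (adjusted P = 0.283) and 0.40 ± 0.12 with NMN (adjusted P = 0.0680). Between NMN and heat stress it was 0.15 ± 0.12 (adjusted P = 0.545). UBE2V1 was at 17.4 and 17.1 FPKM in control, 18 and 16.9 FPKM in heat-stressed and 21.7 and 20.6 FPKM in NMN-supplemented samples. It stood at a like level in control and heat-stressed samples (0.015 ± 0.10, adjusted P = 0.932) and was higher with NMN, by 0.26 ± 0.10 over heat stress (adjusted P = 0.360) and 0.28 ± 0.10 over control (adjusted P = 0.104).

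UBE2V2, the second partner, was at 12.7 and 14 FPKM in control, 16.3 and 13.9 FPKM in heat-stressed and 15.8 and 13.1 FPKM in NMN-supplemented samples. All 3 groups overlapped, and its differences were 0.16, -0.061 and 0.10 ± 0.14 (adjusted P of 0.520, 0.846 and 0.628). The ratio of UBE2V1 to UBE2V2 was 1.37 and 1.23 in control samples, against 1.11 and 1.22 with heat stress and 1.38 and 1.57 with NMN, so the control and NMN-supplemented samples overlapped. The coding sequences of UBE2V1 and UBE2V2 were identical at 82.9% of the positions of the longer one, and how the authors' counting treated fragments that fit both is not given in the sources used here. A stretch of 271 bases of UBE2V2 also matched elsewhere at 92.25%, within the loci of ADAD1 and IL2 (means of 0.216 and 0 FPKM). The level of UBE2V2 and the ratio carry this limit. The call of UBE2N was lost without control replicate 1 (0.39), control replicate 2 (0.42) or NMN replicate 1 (0.32). Both calls of UBE2V1 were lost whichever sample was left out, with differences of 0.22 to 0.30 against heat stress and 0.24 to 0.31 against control. They were also lost with quantile normalization (0.16 and 0.13), scaling to the same nuclear FPKM sum, a replicate block and fits on the compared groups alone. The call against heat stress was also lost with a pseudocount of 0.1 FPKM, scaling to the same median and no variance trend.

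UBE2G1 and UBE2G2 build chains linked through lysine 48, the usual signal for the proteasome, UBE2G1 with cullin-RING ligases and UBE2G2 with ligases of the endoplasmic reticulum (ER). UBE2G1 was at 4.84 and 4.53 FPKM in control, 5.58 and 5.55 FPKM in heat-stressed and 6.46 and 6.47 FPKM in NMN-supplemented samples. Its samples lay close together within groups and apart between them. The difference was 0.21 ± 0.10 with heat stress (adjusted P = 0.294), 0.19 ± 0.10 between NMN and heat stress (adjusted P = 0.419) and 0.39 ± 0.10 between NMN and control (adjusted P = 0.0498). UBE2G2 was at 4.73 and 6.21 FPKM in control, 6.28 and 6.68 FPKM in heat-stressed and 6.98 and 7.15 FPKM in NMN-supplemented samples. The groups stood in the same order, with control samples that lay farther apart, and the difference between NMN and control was 0.33 ± 0.14 (adjusted P = 0.147). UBE2G1 lost its call against control without NMN replicate 1 or 2 (0.39 each). Without control replicate 2, UBE2G2 was called with heat stress (0.38) and with NMN (0.49).

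UBE2J2, an E2 anchored in the ER membrane that acts on misfolded proteins, was called in no comparison. It was at 3.27 and 2.75 FPKM in control, 3.15 and 1.62 FPKM in heat-stressed and 1.61 and 1.78 FPKM in NMN-supplemented samples. Both NMN-supplemented samples were below both control samples, and 1 heat-stressed sample lay among the control samples and the other among the NMN-supplemented samples. The difference was -0.28 ± 0.23 with heat stress (adjusted P = 0.498), -0.29 ± 0.23 between NMN and heat stress (adjusted P = 0.537) and -0.57 ± 0.23 between NMN and control (adjusted P = 0.128). In the comparisons with heat stress, the outcome depended on which heat-stressed sample was kept. Without heat stress replicate 1, UBE2J2 was lower with heat stress than in control (-0.61). Without heat stress replicate 2, it was lower with NMN than with heat stress (-0.62). Between NMN and control it was called lower with either heat-stressed sample left out, at the same difference of -0.57. That call was also made with scaling to the same nuclear FPKM sum (-0.56), with a replicate block and in the fit on the compared groups alone (-0.57 each). UBE2J1, the other ER-anchored member, was listed at 0.

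UBE2H and UBE2Q2 complete the called genes. UBE2H, which works with the multi-subunit CTLH ligase, was at 9.46 and 6.83 FPKM in control, 9.64 and 10.3 FPKM in heat-stressed and 12.5 and 13.2 FPKM in NMN-supplemented samples. The NMN-supplemented samples were above all others, and the control samples lay farthest apart. The difference was 0.28 ± 0.16 with heat stress (adjusted P = 0.350), 0.33 ± 0.16 between NMN and heat stress (adjusted P = 0.390) and 0.61 ± 0.16 between NMN and control (adjusted P = 0.0504). UBE2Q2 was at 5.41 and 5.67 FPKM in control, 7.44 and 7.24 FPKM in heat-stressed and 8.18 and 7.23 FPKM in NMN-supplemented samples. Both control samples were below the other 4, and the heat-exposed groups overlapped. Its difference from control was 0.35 ± 0.11 with heat stress (adjusted P = 0.179) and 0.41 ± 0.11 with NMN (adjusted P = 0.0547). Between NMN and heat stress it was 0.060 ± 0.11 (adjusted P = 0.804).

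For these genes too the calls turned on single samples. UBE2H lost its call against control without NMN replicate 2 (0.58). It gained a call with heat stress without control replicate 1 (0.49). Against heat stress it gained one without control replicate 1 or 2 and in the fit on the compared groups alone. That difference was 0.33 in each of these fits, as with all samples. UBE2Q2 lost its call with heat stress without control replicate 1 (0.32), heat stress replicate 1 (0.33) or heat stress replicate 2 (0.37) and with scaling to the same nuclear FPKM sum (0.32), and its call with NMN without NMN replicate 1 (0.33).

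**Figure D3:**
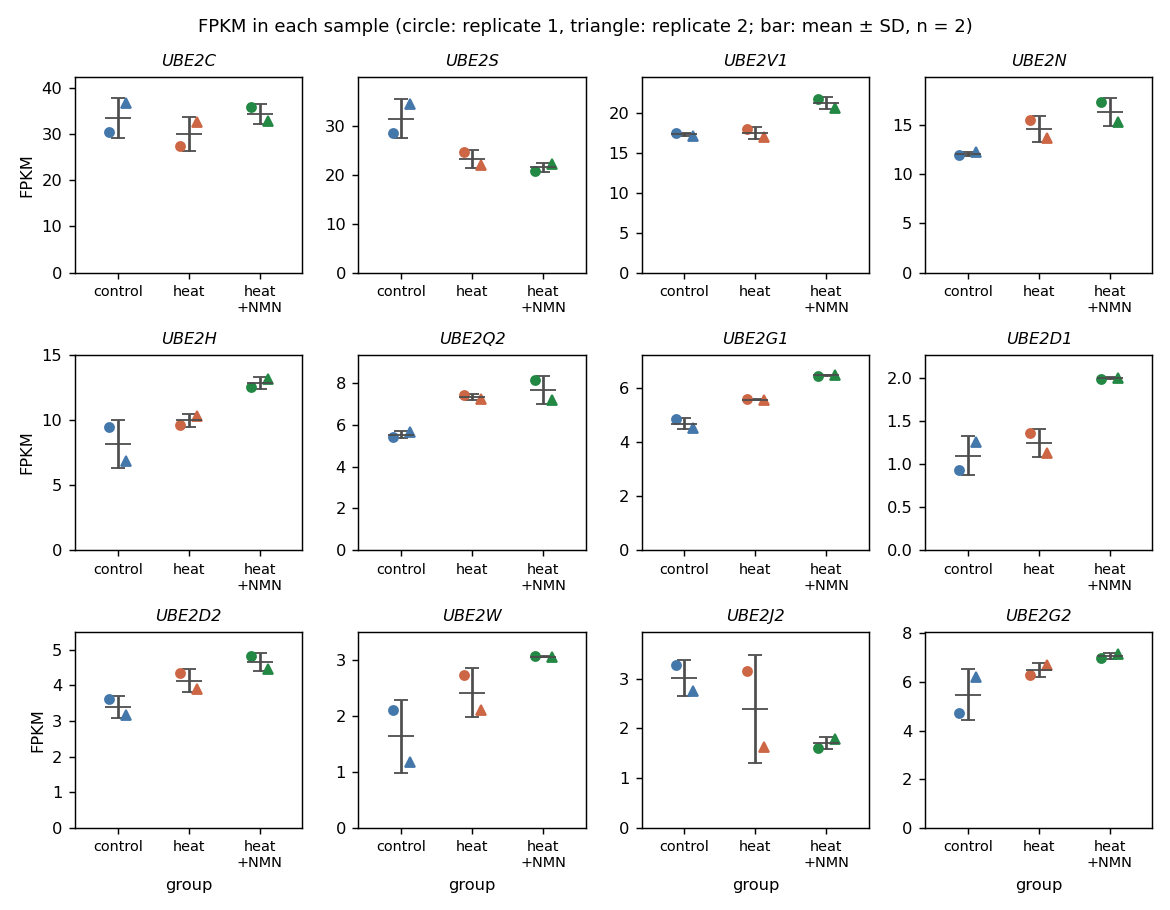
FPKM of 12 E2 genes in each sample, with the mean ± SD of the 2 samples of a group as bars; circles are replicate 1 and triangles replicate 2, and every vertical axis starts at 0. UBE2S is highest in the control samples, UBE2D1 and UBE2V1 are highest in the NMN-supplemented samples, and UBE2Q2 and UBE2N are lowest in the control samples.

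UBE2A, UBE2T and UBE2L3 showed no called difference. UBE2A is an orthologue of yeast RAD6 and modifies histone H2B and, under replication stress, the sliding clamp PCNA. It was at 2.38 and 2.11 FPKM in control, 2.43 and 2.10 FPKM in heat-stressed and 2.46 and 2.21 FPKM in NMN-supplemented samples, with differences of 0.0093, 0.031 and 0.040 ± 0.12. UBE2T, the E2 of the Fanconi anaemia repair pathway, was at 12.3 and 16.4 FPKM in control, 14 and 15.7 FPKM in heat-stressed and 19.7 and 14.3 FPKM in NMN-supplemented samples. Its spread within groups was wide, and its difference between NMN and control was 0.23 ± 0.21 (adjusted P = 0.445). UBE2L3, which passes ubiquitin to a cysteine of HECT and RBR ligases, was at 2.08 and 2.05 FPKM in control, 2.68 and 1.99 FPKM in heat-stressed and 2.71 and 1.85 FPKM in NMN-supplemented samples. All groups overlapped, and its differences were 0.11, -0.029 and 0.085 ± 0.18.

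A feature that the choice of genes did not use is the length of the annotated 3′ UTR, taken from the longest coding transcript of each gene in the Sscrofa11.1 RefSeq annotation. It ran from 162 bases in UBE2S to 8561 bases in UBE2N. For the difference between NMN and control, Spearman's rho with 3′ UTR length was 0.64 over the 17 genes and 0.39 over the 4153 tested genes with a coding model. For heat stress minus control it was 0.61 and 0.36, and for NMN minus heat stress 0.44 and 0.20. These are correlations across genes, which are not independent replicates, within the same few libraries, and they are given as descriptions.

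The 5 members with a 3′ UTR under 600 bases (UBE2S, UBE2C, UBE2T, UBE2J2 and UBE2M), a limit set after the values were seen, had differences between NMN and control from -0.57 to 0.23, and 3 of the 5 were below 0. The other 12 members, with 746 to 8561 bases, had differences from 0.040 to 0.65, and 0 of them were below 0. Because the limit was chosen on these same values, this split cannot test a rule by length. Of all tested genes, 59.6% had a difference above 0 between NMN and control. How they split at 600 bases was not counted. With total transcript length rho for NMN minus control was 0.50 over the members and 0.42 over all genes, and for NMN minus heat stress 0.25 and 0.29. With coding length the members and all genes had opposite signs, -0.52 and 0.28 for NMN minus control and -0.51 and 0.27 for NMN minus heat stress. Whether the trend with length over all genes has a part in the differences of single members was not tested.

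**Figure D4:**
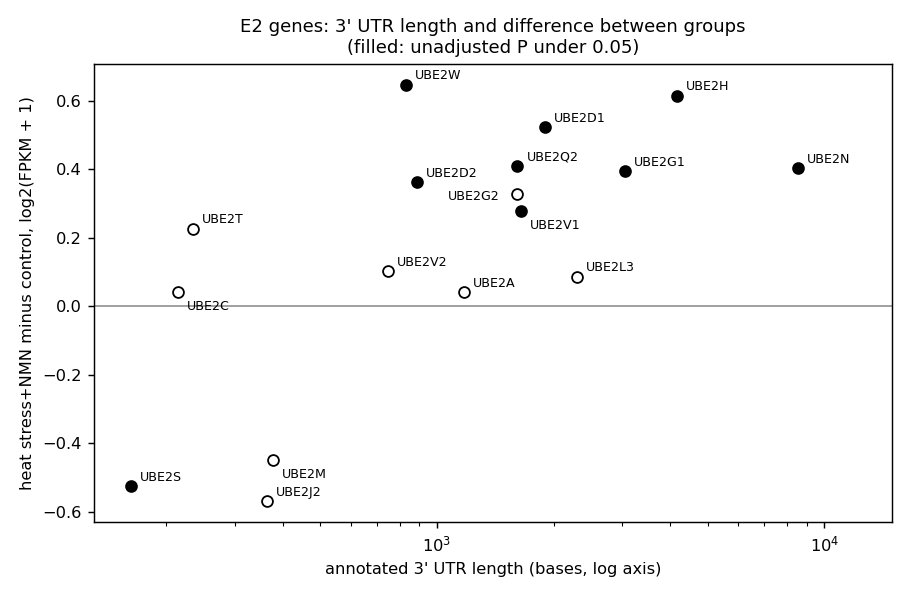
Annotated 3′ UTR length (bases, log axis) of the 17 E2 genes against the difference between heat stress+NMN and control in log2(FPKM + 1); filled points have an unadjusted P under 0.05. The 8 genes called higher have 3′ UTRs of 831 bases or more, and UBE2S, the gene called lower, has the shortest at 162 bases.

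Maturing oocytes lengthen or shorten the poly(A) tails of stored messages through short elements near the 3′ end, among them the cytoplasmic polyadenylation element. The last 100 bases of each annotated transcript were searched on the transcript strand for TTTTAT or TTTTAAT as this element. It was found in 2 of the 17 members, against 1003 of 3906 tested genes with a scanned tail (25.7%). The matches are shown with 30 bases of context, the element in capitals.
UBE2J2: acttgtttttcaTTTTATtagacttggtct
UBE2V1: accattgcctgaTTTTAATataataaaaag
They lay 50 and 38 bases from the annotated end, and UBE2V1 was called higher with NMN while UBE2J2 was not called. A polyadenylation signal (AATAAA or ATTAAA) was found in 15 of the 17 members (88.2%), against 82.1% of the tested genes scanned. UBE2V1 had one 29 bases from its annotated end, whereas none was found for UBE2J2 and UBE2N. A match is a run of letters, not a site shown to act.

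Several genes outside the UBE2 names are closely related to a member, and they were chosen by annotation and sequence after the values were seen. LOC100154647, annotated as like UBE2N (chr1:26025808-26044787, plus strand, Sscrofa11.1), was identical to UBE2N at 89.3% of the positions of the longer coding sequence. Its window over the HPN motif and cysteine is shown in the same way as those above.
LOC100154647: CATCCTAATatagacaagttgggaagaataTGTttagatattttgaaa
It was at 125 and 117 FPKM in control, 148 and 143 FPKM in heat-stressed and 176 and 157 FPKM in NMN-supplemented samples. That level was above that of every named E2 gene in all 6 samples. The groups stood in the same order as those of UBE2N, and its difference between NMN and control was 0.46 ± 0.12 (adjusted P = 0.0449).

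LOC100156381, annotated as like UBE2B (chr13:147179666-147180504, plus strand), was identical to UBE2B at 79.5% of the positions of the longer coding sequence. It matched UBE2B over stretches of 155 and 221 bases at 98.7% and 98.6% identity. It was at 10.7 and 8.74 FPKM in control, 8.77 and 5.32 FPKM in heat-stressed and 2.47 and 2.97 FPKM in NMN-supplemented samples, whereas UBE2B was between 0.169 and 0.670 FPKM. The NMN-supplemented samples were below all others. The difference of NMN was -1.08 ± 0.24 from heat stress (adjusted P = 0.222) and -1.52 ± 0.24 from control (adjusted P = 0.0219). Reads of copies this alike can be given to either locus, so the levels of UBE2B and LOC100156381 are uncertain.

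UBE2D3 has annotated pseudogenes LOC100525233 on chromosome 7 and LOC100155452 on chromosome 4, alike at 95.3% over 380 and 405 bases. They had means of 22.3 and 12 FPKM, against 0.30 FPKM for UBE2D3 itself, whose RefSeq model holds no UTR. LOC100525233 ranged from 9.42 to 31.6 FPKM with the extremes in control and heat-stressed samples, and no comparison of either pseudogene was called. For UBE2N a further match, LOC100517446, was at a mean of 0.265 FPKM (92.5% over 347 bases). LOC102160336 on chromosome 13, annotated as an E2 of the UBE2E family and identical to UBE2E2 at 65.2% of the positions of the longer coding sequence, was at 1.07 and 1.06 FPKM in control, 1.51 and 1.33 FPKM in heat-stressed and 1.57 and 1.5 FPKM in NMN-supplemented samples, and was called higher with NMN than in control (0.30 ± 0.12, adjusted P = 0.115). The table merges the locus of UBE2N with NUDT4, which had a mean of 3.28 FPKM. It also gives UBE2A 1 locus with CXHXorf56 (means of 2.28 and 0.840 FPKM). UBE2G1 and UBE2V1 share theirs with LOC102157773 and LOC110257430, both listed at 0 FPKM.

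**Figure D5:**
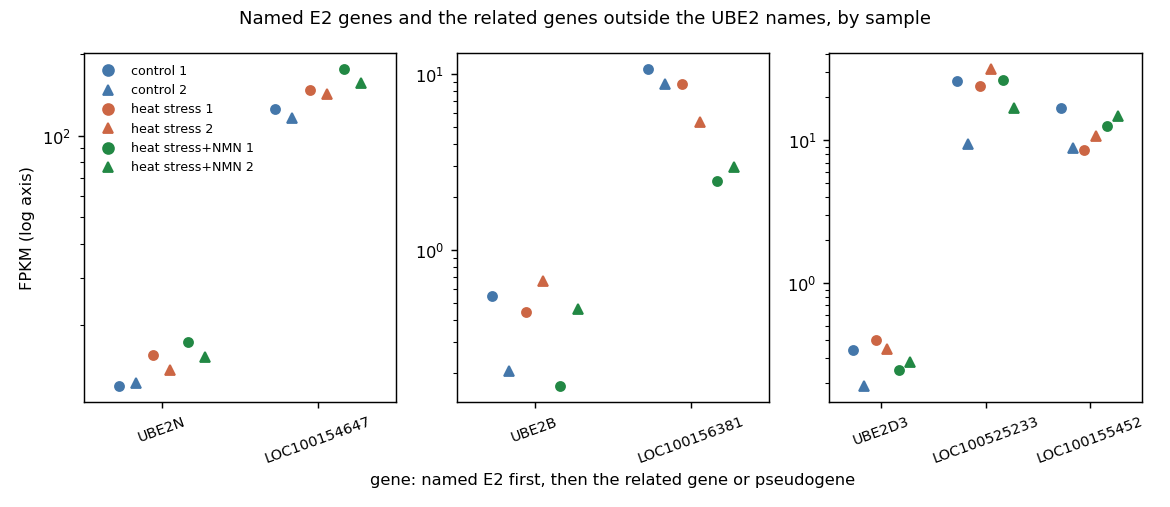
FPKM in each sample, on log axes, of UBE2N, UBE2B and UBE2D3 (left in each panel) and of the related genes or pseudogenes outside the UBE2 names; colours mark the groups and shapes the replicates. In each panel every sample of the related genes lies above every sample of the named E2 gene, and LOC100156381 is lowest in the NMN-supplemented samples.

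Around the E2s, a list of 95 genes of the pathway (E1 enzymes, modifiers, E2-fold genes with other names and E3 partners) had 93 members in the table and 38 that were tested. With heat stress 10 were higher and 5 lower than in control, against 12.7% and 10.1% of all genes. Between NMN and heat stress 6 were higher and 2 lower (all genes 7.15% and 6.45%). Between NMN and control 15 were higher and 4 lower (all genes 25.6% and 15.7%), 12 of them with an adjusted P under 0.05 in limma (all genes 21.5%). That count was 4 without control replicate 1 and 0 without control replicate 2 or either NMN replicate. The median differences of the list were 0.15, 0.12 and 0.19. Without control replicate 2, 8 were called with heat stress, and without NMN replicate 1, 4 were called against heat stress and 12 against control. Without heat stress replicate 1, 4 were called between NMN and heat stress, and without NMN replicate 2, 5.

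Of the E1 enzymes, UBA1, which activates ubiquitin for most E2s, was at 1.34 and 2.04 FPKM in control, 0.705 and 0.997 FPKM in heat-stressed and 1.33 and 1.32 FPKM in NMN-supplemented samples. It was lower with heat stress (-0.53 ± 0.17, adjusted P = 0.179) and not called in the other comparisons. UBA3, the catalytic part of the NEDD8 E1 that loads UBE2M, was at 2.44 and 2.75 FPKM in control, 4.40 and 3.80 FPKM in heat-stressed and 4.59 and 4.42 FPKM in NMN-supplemented samples. Both heat-exposed groups were higher than control, by 0.50 ± 0.12 (adjusted P = 0.130) and 0.62 ± 0.12 (adjusted P = 0.0293). SAE1, part of the SUMO E1, was between 2.91 and 4.0 FPKM and was called in no comparison. MOCS3, an E1-like enzyme of the URM1 system, was at 8.05 and 11.8 FPKM in control, 18.5 and 15.8 FPKM in heat-stressed and 8.89 and 9.23 FPKM in NMN-supplemented samples. The heat-stressed samples were above all others, and the NMN-supplemented samples lay between the control samples. It was higher with heat stress than in control (0.75 ± 0.19, adjusted P = 0.137) and lower with NMN than with heat stress (-0.85 ± 0.19, adjusted P = 0.233).

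CDC34 is a cullin-ligase E2 that carries no UBE2 name. It was at 17.9 and 15.2 FPKM in control, 9.18 and 11.5 FPKM in heat-stressed and 12.1 and 12.6 FPKM in NMN-supplemented samples. It was lower than control in both heat-exposed groups, at -0.63 ± 0.15 with heat stress (adjusted P = 0.127) and -0.39 ± 0.15 with NMN (adjusted P = 0.112). Between NMN and heat stress the difference was 0.25 ± 0.15 (adjusted P = 0.448).

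Among the E3 genes, the HECT ligases SMURF2 and ITCH had the smallest unadjusted P of those higher with NMN than in control (0.92 ± 0.13, adjusted P = 0.0210, and 0.94 ± 0.14, adjusted P = 0.0210). SMURF2 was at 3.96 and 3.15 FPKM in control, 5.88 and 5.95 FPKM in heat-stressed and 7.78 and 7.44 FPKM in NMN-supplemented samples, and was higher with heat stress too (0.61 ± 0.13, adjusted P = 0.122). ITCH was at 4.57 and 4.0 FPKM in control, 5.90 and 7.15 FPKM in heat-stressed and 9.53 and 8.71 FPKM in NMN-supplemented samples. ITCH was also higher with heat stress than in control (0.51 ± 0.14, adjusted P = 0.142) and with NMN than with heat stress (0.43 ± 0.14, adjusted P = 0.340). Both stood in the order control, heat stress, heat stress with NMN, with no overlap of their samples. The share of all genes with this pattern was not counted.

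RNF5, a ligase of the ER membrane, was at 8.68 and 7.93 FPKM in control and between 4.33 and 4.65 FPKM in all other samples. It was lower than in control with heat stress (-0.74 ± 0.11, adjusted P = 0.111) and with heat stress and NMN (-0.80 ± 0.11, adjusted P = 0.0210). Between NMN and heat stress the difference was -0.056 ± 0.11 (adjusted P = 0.811). The SUMO ligase PIAS3 was at 1.31 and 1.05 FPKM in control, 0.883 and 1.40 FPKM in heat-stressed and 2.59 and 2.86 FPKM in NMN-supplemented samples. It was higher with NMN than with heat stress (0.81 ± 0.16, adjusted P = 0.222) and than in control (0.77 ± 0.16, adjusted P = 0.0317). The APC/C subunit ANAPC11, which binds the E2 of the complex, was at 2.73 and 2.47 FPKM in control, 2.71 and 2.63 FPKM in heat-stressed and 1.70 and 1.09 FPKM in NMN-supplemented samples. It was lower with NMN than with heat stress (-0.63 ± 0.16, adjusted P = 0.268) and than in control (-0.60 ± 0.16, adjusted P = 0.0487).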

How the data were processed

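RNA of porcine oocytes was sequenced in 6 samples, 2 in each of 3 groups taken from the labels. According to the methods and the submitters' processing notes, the authors trimmed reads with cutadapt, aligned them to the pig genome (susScr11) with tophat2 and used Cufflinks 2.2.1, Cuffnorm and Cuffdiff. The authors deposited FPKM per gene and sample. Their fold changes, P-values and gene lists were not used. Depth is unknown, and whole reads could not be recovered from the FPKM.

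FPKM were transformed as log2(FPKM + 1), and genes with a mean of at least 1 FPKM were fitted with limma 3.58.1 in R 4.3.3, with a variance trend and all 6 samples in one model. The Benjamini-Hochberg adjustment ran over all 4713 genes, and calls used an unadjusted P under 0.05. The fit was also run on simulated data, with changes larger than those of the E2 genes. That run does not show how well differences of their size are found. Gene models, UTRs and sequences came from RefSeq (Sscrofa11.1, the same build), and copies were found with BLAST 2.17.0 at 90% identity over 150 bases. Alternatives were other pseudocounts, filters and scalings, fits on the compared groups, no trend, a replicate block, and leaving out each sample.

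The members and gene lists were chosen with earlier results of these data known. All members with a mean of at least 1 FPKM were named, except that 1 member and 1 gene of the pathway list are not reported here and are left out of the counts. Of the pathway list, the 2 genes with the smallest P under 0.05 per comparison and direction were named, with the E1 enzymes and E2s that are partners of members.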

Additional observations from a re-analysis of the deposited data

How the results depend on the processing

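The 17 genes gave 13 calls. Over the alternatives there were 795 values of single genes, of which 699 kept their direction and their side of the threshold, 46 lost a call, 17 gained one and 33 changed sign, and all 33 belonged to differences that had not been called. A fit that leaves out a sample keeps 1 sample in its group, which is then assumed to vary like the others. The cause was not tested for any of the changes below.

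Of the counts of E2 genes, heat stress minus control was 4 with no filter on low values, where more genes are tested, 1 with scaling to the same nuclear sum, and 0 to 3 when a sample was left out, with 0 called without heat stress replicate 2. NMN minus heat stress was 1 with a pseudocount of 0.1 FPKM, a minimum mean of 5 FPKM, quantile normalization, scaling to the same median or nuclear sum, no variance trend or the replicate block, and 0 to 2 when a sample was left out. NMN minus control was 2 to 9 when a sample was left out, with 2 without NMN replicate 1 and 5 without NMN replicate 2. Its count of adjusted calls, 3, was 2 with scaling to the median or a minimum mean of 5 FPKM, 1 with a pseudocount of 0.1 FPKM, quantile normalization, no variance trend or without control replicate 1, and 0 in all other alternatives.

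The pathway list gave 23 calls for heat stress minus control at a minimum mean of 0.1 FPKM and 8 to 15 when a sample was left out. For NMN minus heat stress it gave 5 at a minimum mean of 5 FPKM, with scaling to the nuclear sum and with the replicate block, and 4 to 8 when a sample was left out. For NMN minus control it gave 30 at a minimum mean of 0.1 FPKM, 9 at 5 FPKM and 31 with no filter, all from other numbers of genes tested, and 12 to 20 when a sample was left out. Over all genes, heat stress minus control had 7.07% higher and 10.4% lower with scaling to the nuclear sum, and NMN minus heat stress 4.63% higher and 6.58% lower with quantile normalization and 5.83% and 7.13% with scaling to the median.

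Same-numbered samples did not deviate together (correlations of -0.032, -0.014 and 0.0080 between groups). This cannot show whether they were collected or processed together. The replicate block moved no count by over 1.5 times other than those given above. It also ended both calls of UBE2V1 and made UBE2J2 lower with NMN than in control (-0.57), for a split of 7 higher and 2 lower.

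Signs changed as follows, with every value on the log2(FPKM + 1) scale. Quantile normalization gave -0.051 for UBE2C (NMN minus control), -0.025 for UBE2V1 (heat stress minus control) and -0.016 for UBE2V2 (NMN minus control). Scaling to the nuclear sum gave -0.021 for UBE2V1 and -0.019 for UBE2A (both heat stress minus control) and 0.012 for UBE2L3 (NMN minus heat stress). In the fits without 1 sample, the values that changed sign ranged as follows. For heat stress minus control the ranges were -0.025 to 0.056 for UBE2V1, -0.13 to 0.25 for UBE2T, -0.61 to 0.053 for UBE2J2, -0.064 to 0.082 for UBE2A, -0.035 to 0.26 for UBE2L3, -0.0082 to 0.21 for UBE2D1 and -0.28 to 0.12 for UBE2M. For NMN minus heat stress they were -0.051 to 0.39 for UBE2T, -0.19 to 0.063 for UBE2V2, -0.019 to 0.14 for UBE2Q2, -0.62 to 0.043 for UBE2J2, -0.043 to 0.10 for UBE2A, -0.22 to 0.16 for UBE2L3 and -0.88 to 0.13 for UBE2M. For NMN minus control they were -0.089 to 0.17 for UBE2C, -0.022 to 0.23 for UBE2V2, -0.021 to 0.10 for UBE2A, -0.10 to 0.28 for UBE2L3 and -0.96 to 0.056 for UBE2M.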
